A study of Mus musculus with 32 samples.

Results

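The genes described here are the ligands and receptors of axon guidance: the semaphorins of classes 3 to 7 with their plexin and neuropilin receptors, the ephrins with their Eph receptors, the netrins and netrin-Gs with the UNC5 receptors, and the slits with the roundabout (Robo) receptors. They were chosen by name alone, as protein-coding genes of the mouse annotation with symbols of these families, without 2 genes that the rule set aside. The rule found 69 of the 54532 genes in the count table, and 66 of the 69 had enough reads to be tested. 2 of the 69 carry the family prefix without being netrin receptors, Unc50 and Unc5cl, and they were kept because the rule takes them.

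RNA was sequenced from the striatum of 32 mice aged 6 months, with 4 genotypes and 8 mice in each. Wild-type (WT) mice carried neither change. Msh3-/- mice lacked both working copies of Msh3, a DNA mismatch repair gene, through a deletion made by genome editing, zQ175 mice carried an expanded CAG repeat knocked in to the mouse huntingtin gene, and zQ175:Msh3-/- mice carried both. All mice were on a C57BL/6J background, which the groups shared. There were 4 males and 4 females in a group, except for 5 males and 3 females among zQ175:Msh3-/- mice. Both changes are in the germline rather than in chosen cells, and the tissue is a mixture of cell types. In such bulk tissue, fewer cells of a type and less RNA per cell cannot be told apart.

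Guidance cues are proteins that attract or repel growing axons, and most of them go on being made in the adult brain, where they act on spines and synapses. Semaphorins signal through plexins, and the secreted class 3 members usually need a neuropilin as co-receptor. Ephrins are held in the membrane, so that ephrin and Eph receptor signal where cells touch, often in both directions. Netrins act through DCC and UNC5 receptors, and slits repel axons that carry Robo receptors. In the developing striatum, the pair Sema3e and Plxnd1 is known for its part in the wiring of spiny projection neurons that express the dopamine receptor D1.

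The promoters of 4 genes are shown because these are the pair of lowered and the pair of raised members with the smallest adjusted p for zQ175 mice among those that differed in both Msh3 genotypes. Each is the 250 bases before the most upstream RefSeq start on GRCm38.p6, written 5′ to 3′ on the gene's strand, with the GC box GGGCGG in capitals where it occurred on either strand (as CCGCCC on the opposite one).

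Plxnd1: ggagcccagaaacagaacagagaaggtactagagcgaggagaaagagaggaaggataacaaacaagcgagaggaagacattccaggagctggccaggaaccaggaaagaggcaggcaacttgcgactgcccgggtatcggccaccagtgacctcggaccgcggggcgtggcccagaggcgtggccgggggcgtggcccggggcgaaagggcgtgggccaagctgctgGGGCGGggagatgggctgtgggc

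Sema7a: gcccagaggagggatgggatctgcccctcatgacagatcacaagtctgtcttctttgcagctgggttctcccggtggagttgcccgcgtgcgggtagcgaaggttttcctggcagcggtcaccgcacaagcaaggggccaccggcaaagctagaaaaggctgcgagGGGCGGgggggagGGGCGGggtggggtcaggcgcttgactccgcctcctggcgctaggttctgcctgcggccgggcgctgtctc

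Plxna3: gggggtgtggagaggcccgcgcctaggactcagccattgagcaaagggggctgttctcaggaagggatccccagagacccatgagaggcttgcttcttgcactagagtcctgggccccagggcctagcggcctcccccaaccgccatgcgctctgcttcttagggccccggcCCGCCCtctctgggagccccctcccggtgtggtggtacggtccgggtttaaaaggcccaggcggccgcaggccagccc

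Sema6c: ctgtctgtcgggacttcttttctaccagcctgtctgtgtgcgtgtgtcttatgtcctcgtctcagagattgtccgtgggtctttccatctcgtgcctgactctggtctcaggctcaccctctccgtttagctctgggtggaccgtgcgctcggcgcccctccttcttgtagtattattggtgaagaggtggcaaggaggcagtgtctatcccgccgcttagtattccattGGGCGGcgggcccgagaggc

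The Plxnd1 sequence covers chr6:115995006-115995255 on the minus strand, and that of Sema7a covers chr9:57939862-57940111 on the plus strand. Those of Plxna3 (chrX:74328816-74329065) and Sema6c (chr3:95160170-95160419) are on the plus strand. All 4 held at least 1 GC box, and Sema7a held 2. Over the 60 members with a RefSeq promoter, 44 (73.3%) held GGGCGG on either strand, against 57.6% of the promoters of 11890 tested genes and 33.0% of all 27025 genes with one. The letters TATAAA were in 2 of the 60 promoters (6.55% of those of tested genes), CCAAT was in 17 (36.1%) and TGACGTCA was in 1 (2.67%), each searched on both strands. The lowered and the raised genes shown here were thus alike in holding the GC box, which is a match of letters only. The members' promoters had a median of 64.4% G and C, against 59.6% for tested genes. The promoters of Sema3f, Sema6a, Unc5d, Plxna1, Slit1, Sema3b, Ntn1, Plxna4 and Efnb3 were not matched.

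Levels in the 32 striata, compared between genes in TPM, a value scaled for gene length and for sequencing depth, spanned a wide range. Efnb3, a membrane ligand of EphB receptors, had the highest mean at 149 TPM, with mice between 117 and 181. Sema7a, the only semaphorin held by a lipid anchor, followed with 102 TPM (67.6 to 133 over mice), and Sema6b, a transmembrane semaphorin, with 95.0 (85.6 to 105). The ranges of Efnb3 and Sema7a overlapped, as did those of Sema7a and Sema6b, so these neighbours did not separate over mice. Robo2, a slit receptor, was next with 71.2 TPM. 10 members had a mean of at least 50 TPM and 37 a mean of at least 10, while 15 were under 5.

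**Figure D1:**
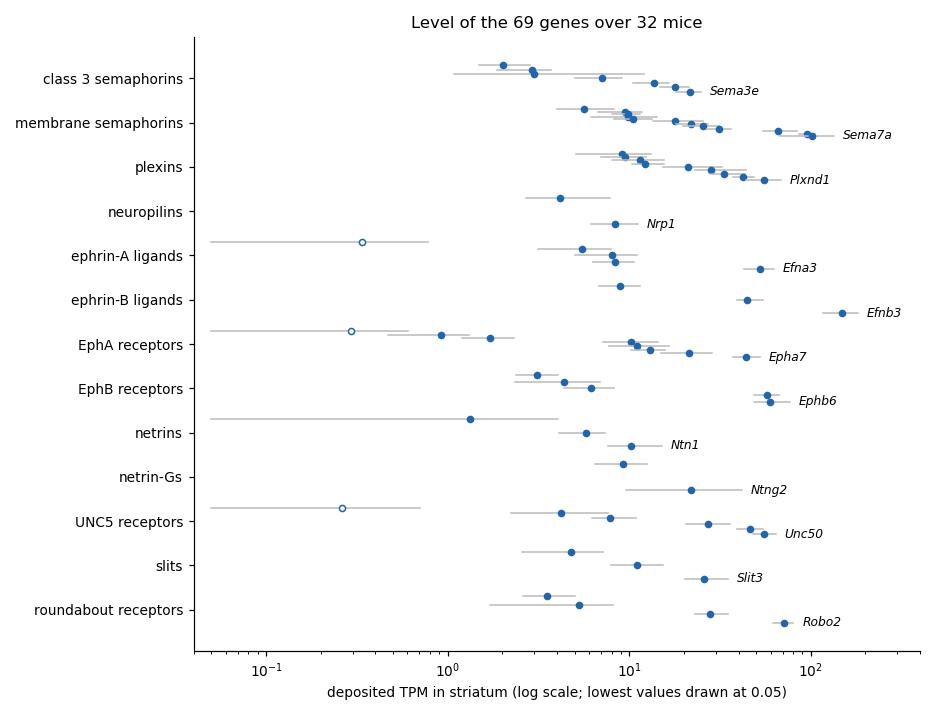
Mean deposited TPM (points, log axis) of the 69 genes over 32 mice, by family, with grey lines from the lowest to the highest mouse and open points for the 3 genes under the filter on low counts. The highest gene of each family is named, and Efnb3, at 149 TPM, leads all families.

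Levels also differed within families. Among receptors, the leading pairs by mean TPM were Plxnd1 (55.1) and Plxnb1 (42.5) for plexins, Epha7 (44.2) and Epha5 (21.3) for EphA receptors, and Ephb6 (59.6) and Ephb1 (57.0) for EphB receptors. Unc50 (54.9) and Unc5a (46.3) led their set, the first of them not being a netrin receptor, and Robo2 was followed by Robo1 at 27.9. The neuropilins were lower, with 8.39 for Nrp1 and 4.14 for Nrp2. Among ligands, the leading pairs by mean TPM were Sema3e (21.6) and Sema3f (17.9) of class 3, Efna3 (52.5) and Efna2 (8.39) of the ephrin-As, and Efnb3 and Efnb2 (44.7) of the ephrin-Bs. The leading netrins were Ntn1 (10.2) and Ntn4 (5.78), and Ntng2 (21.8) exceeded Ntng1 (9.20) among the membrane-tethered netrin-Gs. Slit3 (25.7) led Slit1 (11.1) among the slits. Epha1, Efna4 and Unc5cl did not pass the filter, with mean values of 0.293, 0.336 and 0.261 TPM.

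The deposited counts summed to between 12359347 and 25030335 reads per mouse (median 16700247), and a member's median count over mice ran from 3.5 for Unc5cl to 3284 for Efnb3. Msh3 itself, counted along the whole gene, read 22.9 to 27.5 CPM (counts scaled to a common depth by TMM) in WT and 10.4 to 13.6 in Msh3-/- mice, with no overlap, and 22.8 to 27.4 in zQ175 against 11.1 to 14.2 in zQ175:Msh3-/- mice. Every mouse thus lay on the side that its label gives. Summed CPM of 4 choroid plexus markers ran from 20.0 to 2907 over mice. That of 6 cortical excitatory neuron markers ran from 36.3 to 662. Whether the dissections differed was not tested. The 10 markers of spiny projection neurons, the main striatal cell type, were all present, as were those of the other lists, and their sum was 8035 to 9870 in WT and 4397 to 5693 in zQ175 mice.

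The first question was which guidance genes differ with the expanded allele where Msh3 is intact. Between zQ175 and WT mice, 12 of the 66 tested members were called, that is, passed an adjusted p of 0.05 with at least a 1.2-fold change, against 11.6% of all 16610 genes tested. 7 members rose (4.70% of all genes rose) and 5 fell (6.89% of all genes fell). The raised genes were the receptors Plxna3, Plxnb3, Plxna1 and Ephb2 and the ligands Sema6c, Slit1 and Slit2, with increases of 0.34 to 0.56 on the log2 scale. The lowered genes were the receptors Plxnd1 and Robo4 and the ligands Sema7a, Slit3 and Efna3, with log2 changes from -0.53 to -0.26. The median log2 change of the 66 members was -0.03, beside 0.01 for all genes. With TPM tested by limma on log2(TPM + 0.1), 10 members rose and 3 fell. The split of all called genes moved the same way with that scaling, from 40.6% higher to 59.9% higher.

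The second question was whether the same genes differ when Msh3 is absent, in mice that the first comparison did not use. Between zQ175:Msh3-/- and Msh3-/- mice, 10 of 66 members were called, against 10.6% of all genes: 7 rose (4.68% of all genes rose) and 3 fell (5.96% of all genes fell). 8 members were called in both comparisons with the same direction, where 7.29% of all genes were: Plxna3, Plxnb3, Ephb2, Sema6c, Slit1 and Slit2 rose, and Plxnd1 and Sema7a fell. Over all tested members, 55 of 66 (83.3%) had the same sign in the 2 comparisons, beside 77.8% of all genes. On log2(TPM + 0.1), 11 members rose and 1 fell, while the share of all called genes that were higher went from 44.0% to 68.5%. Groups of 8 against 8 mice did not overlap for 4 members between zQ175 and WT (6.63% of all genes) and for 2 between zQ175:Msh3-/- and Msh3-/- (5.39%), shares near those of all genes.

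**Figure D2:**
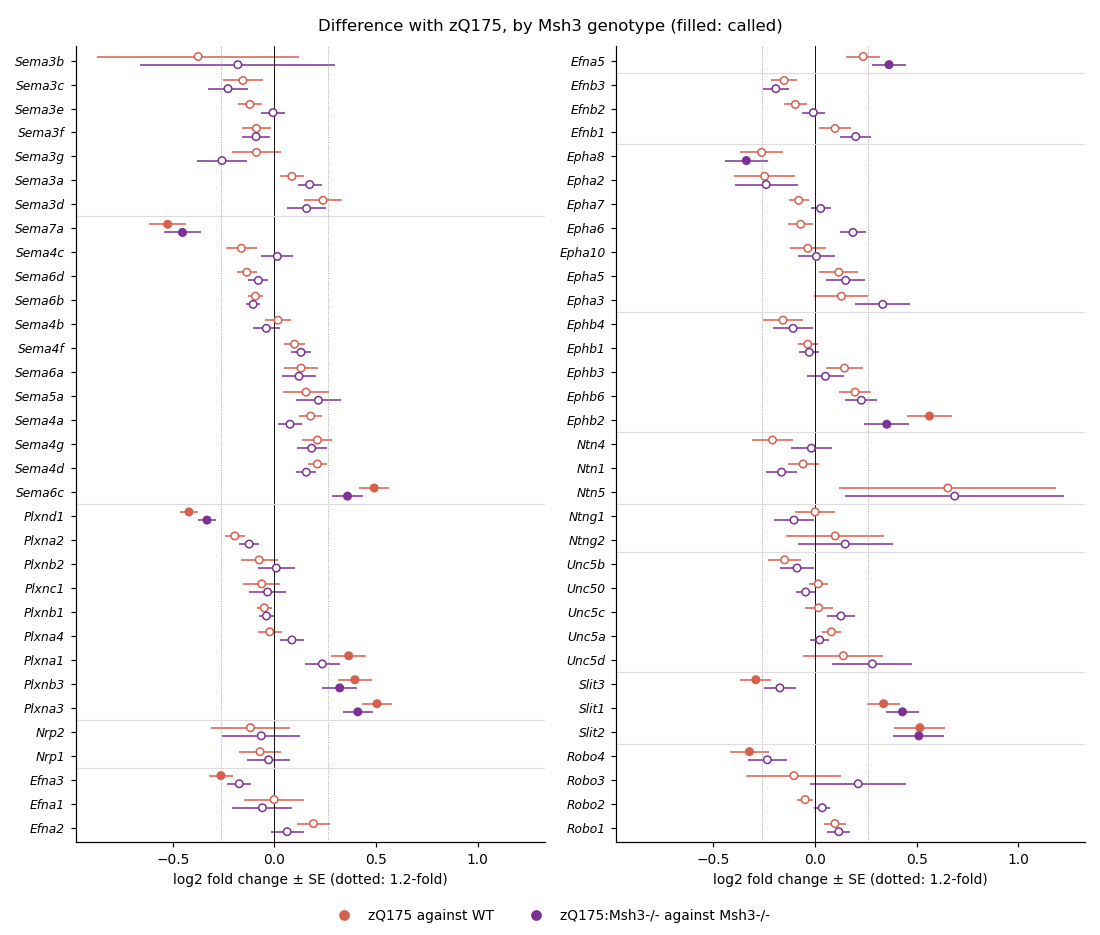
Log2 fold change ± SE of the 66 tested members, ordered by family, for zQ175 against WT (red) and zQ175:Msh3-/- against Msh3-/- (purple), with filled points for called members and dotted lines at 1.2-fold. Plxnd1 and Sema7a lie to the left in both and Plxna3, Plxnb3, Ephb2, Sema6c, Slit1 and Slit2 to the right in both.

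Plexins showed both directions. Plxnd1 (ENSMUSG00000030123, chromosome 6, 115954811 to 115995005), the receptor of Sema3e, had a lowest, median and highest value of 162, 175 and 196 CPM in WT and of 122, 130 and 149 in zQ175 mice. Every zQ175 mouse was below every WT mouse. It stood at 158, 175 and 202 CPM in Msh3-/- and at 129, 139 and 152 in zQ175:Msh3-/- mice, again without overlap, so that all 16 mice with the zQ175 allele were below all 16 without it. The log2 change was -0.42 ± 0.05 (SE; edgeR adjusted p = 4.16e-09) with intact Msh3 and -0.33 ± 0.05 (adjusted p = 7.02e-07) without it. On log2(TPM + 0.1) the second value was -0.26, just short of 1.2-fold. Its ligand Sema3e was not called (-0.12 ± 0.06, adjusted p = 0.120, with intact Msh3). The spiny projection neuron markers moved the same way as Plxnd1, with 9 of 10 called lower in each comparison (6.89% and 5.96% of all genes were) and a median log2 change of -0.81 between zQ175 and WT. The 7 endothelial and pericyte markers were also all lower, with median log2 changes of -0.26 and -0.18. Of these, 2 were called between zQ175 and WT and none without Msh3. The 6 microglia markers were all lower as well, with medians of -0.12 and -0.15, and none was called. Medians were -0.11 in both comparisons for the 6 astrocyte markers, and 0.04 and 0.05 for the 8 oligodendrocyte markers. The part of any of these marker sets in the Plxnd1 result was not tested.

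Plxna3 (chromosome X, 74329066 to 74344689), a receptor that works with neuropilins for class 3 semaphorins, moved the other way. Its lowest, median and highest CPM were 11.0, 13.8 and 17.1 in WT and 17.0, 19.4 and 22.9 in zQ175 mice. A single zQ175 mouse lay within the WT range. Without Msh3 the values were 12.8, 14.5 and 16.7 in Msh3-/- and 18.2, 19.7 and 20.9 in zQ175:Msh3-/- mice, which did not overlap. The log2 increases were 0.50 ± 0.07 (adjusted p = 1.10e-06) and 0.41 ± 0.07 (adjusted p = 4.46e-05).

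Plxna1, of the same class, rose by 0.37 ± 0.09 on the log2 scale (adjusted p = 0.00163) with intact Msh3, from a median of 36.4 CPM (31.8 to 43.7) to 48.2 (39.5 to 54.7). Without Msh3 its increase of 0.24 ± 0.09 (adjusted p = 0.0456) was under 1.2-fold. Plxnb3 (chromosome X, 73757090 to 73772514), a class B plexin known from oligodendrocytes, had 38.9, 45.4 and 49.0 CPM in WT and 47.6, 56.4 and 75.5 in zQ175 mice. Its values spread out in the zQ175 group and 6 of the 8 mice exceeded all WT mice. It was at 38.5, 43.1 and 48.0 CPM in Msh3-/- and at 45.3, 53.7 and 67.6 in zQ175:Msh3-/- mice. Its log2 increases were 0.40 ± 0.08 (adjusted p = 0.000594) and 0.32 ± 0.09 (adjusted p = 0.00567). The highest mice, zQ175 male 4 and zQ175:Msh3-/- male 3, had the lowest summed cortical markers of their groups, 36.3 and 131 CPM. The first call was kept in all 12 alternatives and the second in 10. The second was lost without the 8 mice of high choroid plexus markers and without the 10 of low or high cortical marker level. The summed level of 8 oligodendrocyte markers was 8900 to 10927 CPM in WT and 7128 to 11370 in zQ175 mice, and 1 of the 8, Mobp, was called, as lower. Among the other plexins, Plxna2 had a change under 1.2-fold (-0.20 ± 0.05, adjusted p = 0.00280), and Plxnb1, Plxnb2, Plxnc1 and Plxna4 had changes between -0.07 and -0.02 with intact Msh3, none past the threshold.

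Among semaphorins, the lipid-anchored Sema7a and the transmembrane Sema6c moved in opposite directions. Sema7a (chromosome 9, 57940112 to 57962865), which also binds integrins and Plxnc1, stood at 156, 165 and 185 CPM in WT and at 93.5, 121 and 139 in zQ175 mice, which did not overlap. In Msh3-/- mice it stood at 129, 164 and 193 CPM and in zQ175:Msh3-/- mice at 95.5, 116 and 148, where 6 of 8 mice were below all Msh3-/- mice. The log2 changes were -0.53 ± 0.09 (adjusted p = 4.31e-05) and -0.45 ± 0.09 (adjusted p = 0.000346). Sema7a was thus among the most abundant members in the striatum and the one with the lowest fitted log2 change between zQ175 and WT. Its partner Plxnc1 had a change of -0.06 ± 0.09 (adjusted p = 0.672).

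Sema6c (chromosome 3, 95160457 to 95174024) had 9.08, 9.99 and 11.8 CPM in WT and 12.2, 14.8 and 16.0 in zQ175 mice. All 8 zQ175 mice were above all WT mice. It had 9.27, 11.3 and 14.4 CPM in Msh3-/- and 12.6, 14.7 and 15.7 in zQ175:Msh3-/- mice, with some overlap. The log2 increases were 0.49 ± 0.07 (adjusted p = 2.71e-06) and 0.36 ± 0.07 (adjusted p = 0.000336). Of the other 10 membrane semaphorins none was called. Sema4d, a ligand of class B plexins that oligodendrocytes also make, came nearest, with changes of 0.21 ± 0.05 (adjusted p = 0.00107) and 0.16 ± 0.05 (adjusted p = 0.0168), both under 1.2-fold. Sema4a and Sema4g (0.18 and 0.21) and Sema6d and Sema6b (-0.14 and -0.09) also had an adjusted p under 0.05 between zQ175 and WT with less than a 1.2-fold change. None of the 7 class 3 semaphorins and neither neuropilin was called in either comparison, with median log2 changes of -0.09 for the class 3 genes in both and of -0.09 and -0.05 for the neuropilins.

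**Figure D3:**
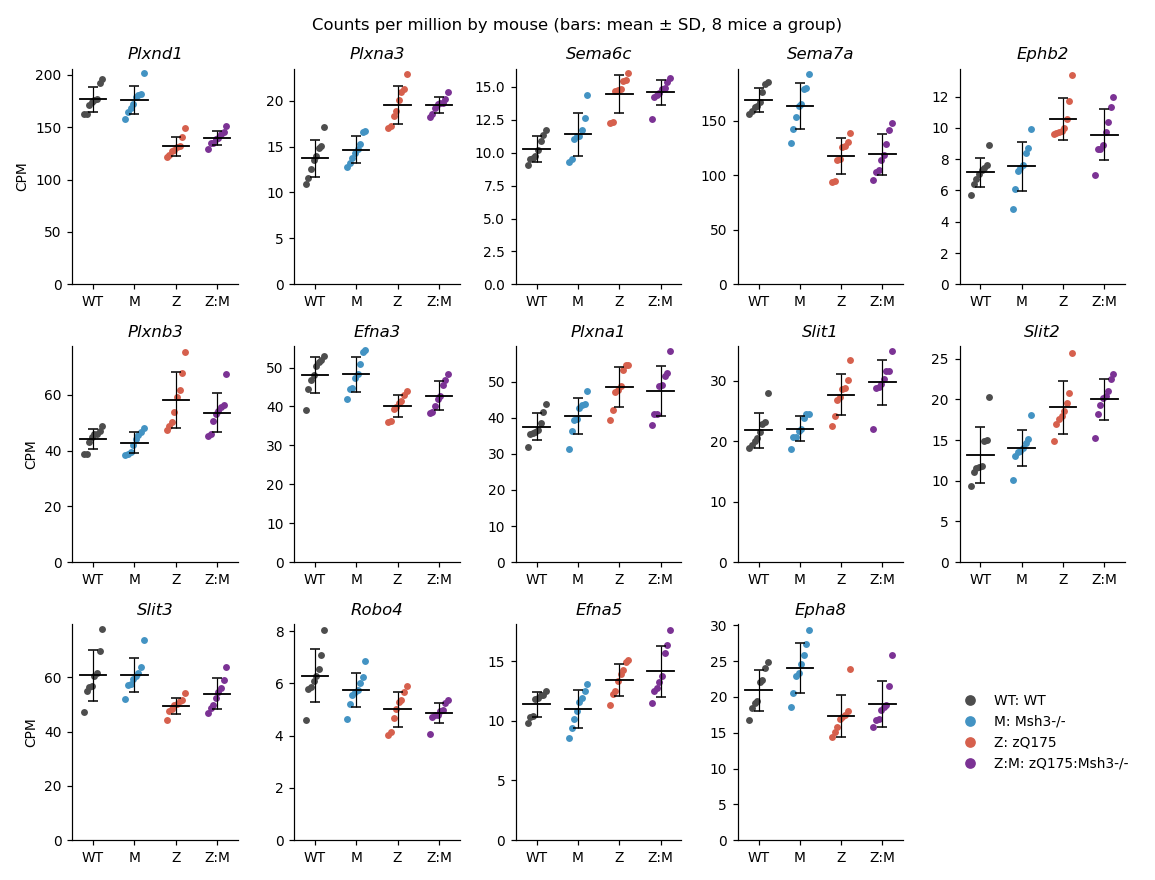
CPM of each mouse, scaled by TMM, (points) with the mean ± SD of 8 mice, for the 14 members called in either zQ175 comparison. Plxnd1 is lower in all 16 mice with the zQ175 allele, and Plxna3 is above the other 16 mice in 15 of them.

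Among Eph receptors, Ephb2 was the one called in both comparisons. Ephb2 (chromosome 4, 136647539 to 136835988), a receptor for ephrin-Bs that acts at excitatory synapses, had 5.73, 7.21 and 8.93 CPM in WT and 9.64, 9.91 and 13.4 in zQ175 mice, without overlap. In Msh3-/- mice it had 4.82, 7.55 and 9.91 CPM and in zQ175:Msh3-/- mice 7.01, 9.30 and 12, with 3 of 8 above all Msh3-/- mice. The log2 increases were 0.56 ± 0.11 (adjusted p = 0.000161) and 0.35 ± 0.11 (adjusted p = 0.0180). Without the 10 mice of low or high cortical marker level, an alternative chosen after seeing the data, the second increase was 0.13 and no longer called. Epha8 fell without Msh3, by 0.34 ± 0.10 on the log2 scale (adjusted p = 0.0166), from 18.6, 23.9 and 29.4 CPM in Msh3-/- to 15.9, 18.4 and 25.8 in zQ175:Msh3-/- mice. This call was lost in 5 of 12 alternatives, among them the cortical and choroid plexus marker levels in the model (-0.22) and leaving out those 10 mice (-0.21). With intact Msh3 the Epha8 change was -0.26 ± 0.11 (adjusted p = 0.0626), from 16.8, 20.7 and 24.9 CPM to 14.4, 17.0 and 23.9. The difference between these 2 Epha8 changes was not significant (interaction adjusted p = 0.999). Of the other receptors, Ephb6, which lacks kinase activity, had a change of 0.23 ± 0.08 without Msh3 (adjusted p = 0.0334, under 1.2-fold), and Ephb1, Epha5 and Epha7 were within -0.08 to 0.15 in both comparisons without being called.

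Among ephrins, Efna3 fell and Efna5 rose. Efna3 (chromosome 3, 89313899 to 89322965) stood at 39.0, 49.2 and 52.9 CPM in WT and at 36.1, 40.3 and 43.9 in zQ175 mice, where only 2 of 8 mice were below all WT mice. Its log2 change of -0.26 ± 0.06 (adjusted p = 0.000972) barely passed 1.2-fold, and without Msh3 it was -0.17 ± 0.06 (adjusted p = 0.0322) and not called. The 8 zQ175:Msh3-/- mice had 38.3, 42.3 and 48.3 CPM against 41.9, 47.8 and 54.5 in Msh3-/- mice. Efna3 overlaps an antisense gene with a mean of 10.4 reads against its 762, and as whether reads were counted by strand is not given in the sources used here, the 2 cannot be told apart. Its neighbours on chromosome 3 include Efna1, 32756 bases away, which had a log2 change of -0.00 ± 0.15 (adjusted p = 0.994). Efna5 (chromosome 17, 62604184 to 62881317), which repels axons bearing EphA receptors, rose without Msh3 by 0.36 ± 0.09 (adjusted p = 0.00146), from 8.57, 11.2 and 13.1 CPM to 11.5, 13.5 and 17.6. Without the 10 mice of low or high cortical marker level it was 0.20 and not called. With intact Msh3 its change was 0.24 ± 0.08 (adjusted p = 0.0345), under 1.2-fold, from 9.81, 11.9 and 12.5 CPM to 11.3, 13.6 and 15.1. Efnb3, the most abundant member, had changes of -0.15 ± 0.07 (adjusted p = 0.0857) and -0.19 ± 0.07 (adjusted p = 0.0289), under 1.2-fold, and was not called.

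Slits divided by member. Slit1 (chromosome 19, 41600257 to 41743665) had 18.9, 21 and 27.9 CPM in WT and 22.4, 27.9 and 33.4 in zQ175 mice. It had 18.7, 21.8 and 24.5 CPM in Msh3-/- and 22.0, 29.9 and 34.8 in zQ175:Msh3-/- mice. The groups overlapped in both comparisons, although 7 of the 8 zQ175:Msh3-/- mice were above all Msh3-/- mice. Its log2 increases were 0.34 ± 0.08 (adjusted p = 0.00209) and 0.43 ± 0.08 (adjusted p = 0.000170). Slit2 (chromosome 5, 47983138 to 48307733) had 9.36, 11.7 and 20.2 CPM in WT and 14.9, 18.2 and 25.7 in zQ175 mice, and 10.1, 13.9 and 18.1 in Msh3-/- against 15.3, 20.2 and 23.1 in zQ175:Msh3-/- mice. The WT and zQ175 groups overlapped, with 2 of 8 zQ175 mice above all WT mice. The log2 increases were 0.52 ± 0.13 (adjusted p = 0.00218) and 0.51 ± 0.13 (adjusted p = 0.00279).

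Slit3 (chromosome 11, 35121224 to 35708507), the most abundant slit, fell by 0.29 ± 0.08 on the log2 scale between zQ175 and WT (adjusted p = 0.00445), from 47.3, 58.8 and 77.9 CPM to 44.3, 49.9 and 54.1. Without Msh3 the change was -0.17 ± 0.08 (adjusted p = 0.102), from 52.0, 60.1 and 73.6 CPM to 46.9, 53.6 and 64.0. Slit2 and Slit3 each hold a microRNA and other small genes within their bounds, and none of these passed the filter. The summed cortical excitatory neuron markers had a median of 195 CPM in WT against 268 in zQ175 mice. Without Msh3 the medians were 214 CPM in Msh3-/- against 326 in zQ175:Msh3-/- mice. All 6 markers were higher in both comparisons, though none was called. Their log2 changes were 0.43 to 0.82 (median 0.61) with intact Msh3 and 0.42 to 0.84 (median 0.63) without it. Without the 10 mice of low or high cortical marker level, Slit1 stayed called in both comparisons, while Slit2 was not called in either, with increases of 0.38 and 0.34, and Slit3 was at -0.21 and not called. With the cortical and choroid plexus marker levels of each mouse as terms in the model, also chosen after seeing the data, Slit1 and Slit2 stayed called in both comparisons and Slit3 between zQ175 and WT, with log2 changes of 0.29 and 0.38 for Slit1, 0.46 and 0.45 for Slit2 and -0.27 for Slit3.

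Of the 4 roundabout receptors, which bind slits, Robo4 was the one called. Robo4, which is found mainly in endothelial cells, fell by 0.32 ± 0.10 between zQ175 and WT (adjusted p = 0.00984), from 4.58, 6.19 and 8.05 CPM to 4.02, 5.15 and 5.88, with 2 of 8 zQ175 mice below all WT mice. Without Msh3 the change was -0.23 ± 0.10 (adjusted p = 0.0748), from 4.64, 5.71 and 6.84 CPM to 4.06, 4.88 and 5.36. The 7 endothelial and pericyte markers summed to 271 to 299 CPM in WT and 237 to 297 in Msh3-/- mice. With the zQ175 allele, their sum was 200 to 267 CPM where Msh3 was intact and 221 to 252 where it was lost. Of those 7 markers 2 were called between zQ175 and WT, Flt1 and Tek, both lower, and none between the groups without Msh3. Their part in the Robo4 result was not tested. Robo2, Robo1 and Robo3 had log2 changes of -0.05, 0.10 and -0.10 between zQ175 and WT, none of them called.

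Netrin and UNC5 genes were not called in either comparison. Ntn1, the classical attractant of commissural axons, had changes of -0.06 ± 0.08 and -0.16 ± 0.08, and its repulsive receptor Unc5a had 0.08 ± 0.05 and 0.02 ± 0.05. Unc5b, Unc5c and Unc5d had changes of -0.15, 0.02 and 0.14 between zQ175 and WT. Ntn5 had the highest fitted changes of all members (0.65 ± 0.53 and 0.69 ± 0.54), but it had 0 to 45 reads per mouse and adjusted p-values of 0.407 and 0.389. Ntn4 was at -0.21 ± 0.10 (adjusted p = 0.118) with intact Msh3.

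Some members varied more over mice than between genotypes. Sema3b, a secreted class 3 semaphorin, had a lowest, median and highest CPM of 1.82, 2.53 and 7.97 in WT and of 1.86, 3.03 and 10.6 in Msh3-/- mice. In zQ175 mice it had 1.36, 1.88 and 8.60 and in zQ175:Msh3-/- mice 1.42, 2.19 and 13.2. In each of the 4 groups the mouse with the highest Sema3b also had the highest summed choroid plexus markers (1535, 1773, 1792 and 2907 CPM, in the same order). Ntng2, a netrin-G, ran from 7.26 to 29.6 CPM over mice. Its highest mice in Msh3-/- (27.2 CPM) and zQ175:Msh3-/- (29.6 CPM) were those with the highest summed cortical markers of their groups (457 and 662 CPM), whereas in WT and zQ175 mice another mouse was highest. Ntn5, Sema3b, Robo3 and Ntng2 had the widest spread within groups, with SDs of 1.15, 0.87, 0.51 and 0.49 on the log2 CPM scale. Sema3b, Robo3 and Ntng2, named here after their values were seen, were not called in any comparison.

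**Figure D4:**
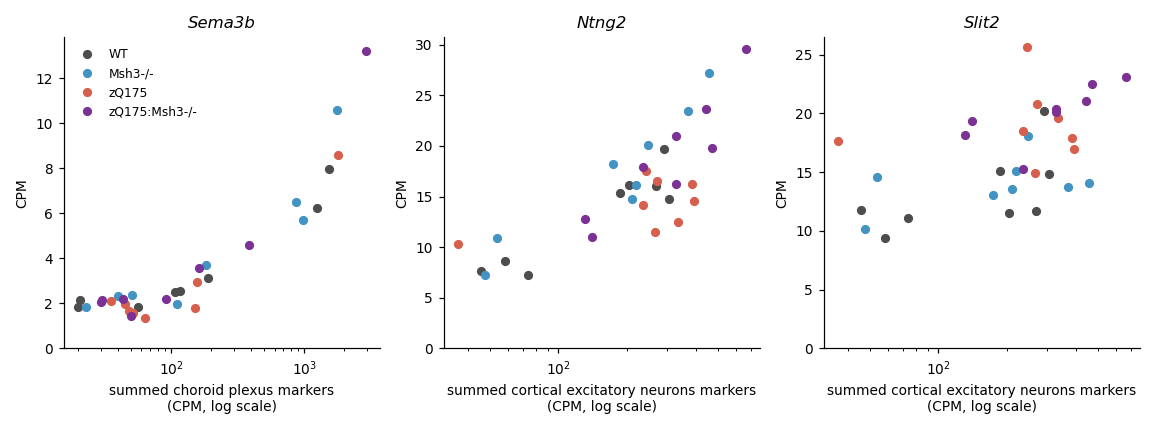
CPM of Sema3b against the summed CPM of 4 choroid plexus markers, and of Ntng2 and Slit2 against that of 6 cortical excitatory neuron markers (x axes on a log scale), 1 point per mouse, by genotype. The highest Sema3b value, 13.2 CPM, belongs to the mouse with 2907 CPM of choroid plexus markers.

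Against WT, zQ175:Msh3-/- mice differed in 13 of 66 members, beside 12% of all genes. This comparison shares its WT mice with the first, and its zQ175:Msh3-/- mice with the second, so it adds no independent mice. Plxnd1 (-0.34), Sema7a (-0.50) and Robo4 (-0.37) fell. Plxna3, Sema6c, Slit1, Slit2, Plxna1, Ephb2, Efna5, Plxnb3, Efnb1 and Sema5a rose, by 0.28 to 0.60 on the log2 scale.

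The third question was whether loss of Msh3 changes these genes in mice that carry the expanded allele. Between zQ175:Msh3-/- and zQ175 mice none of the 66 members was called by edgeR, beside 0.00602% of all genes. At an unadjusted p under 0.05, 3 members differed (3.70% of all genes did): Efnb1, Epha6 and Efnb2, named after their values were seen. DESeq2, limma and the other alternatives that were run called 0 as well. The median log2 change of the members was 0.05, beside 0.00 for all genes. For the 8 genes called in both zQ175 comparisons, Msh3 loss gave log2 changes of 0.08 ± 0.05 for Plxnd1, 0.02 ± 0.09 for Sema7a, -0.00 ± 0.07 for Plxna3 and 0.01 ± 0.07 for Sema6c. For Ephb2 and Plxnb3 the values were -0.13 ± 0.11 and -0.11 ± 0.08, and for Slit1 and Slit2 they were 0.10 ± 0.08 and 0.08 ± 0.12. These differences were all within 2 SE of zero.

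**Figure D5:**
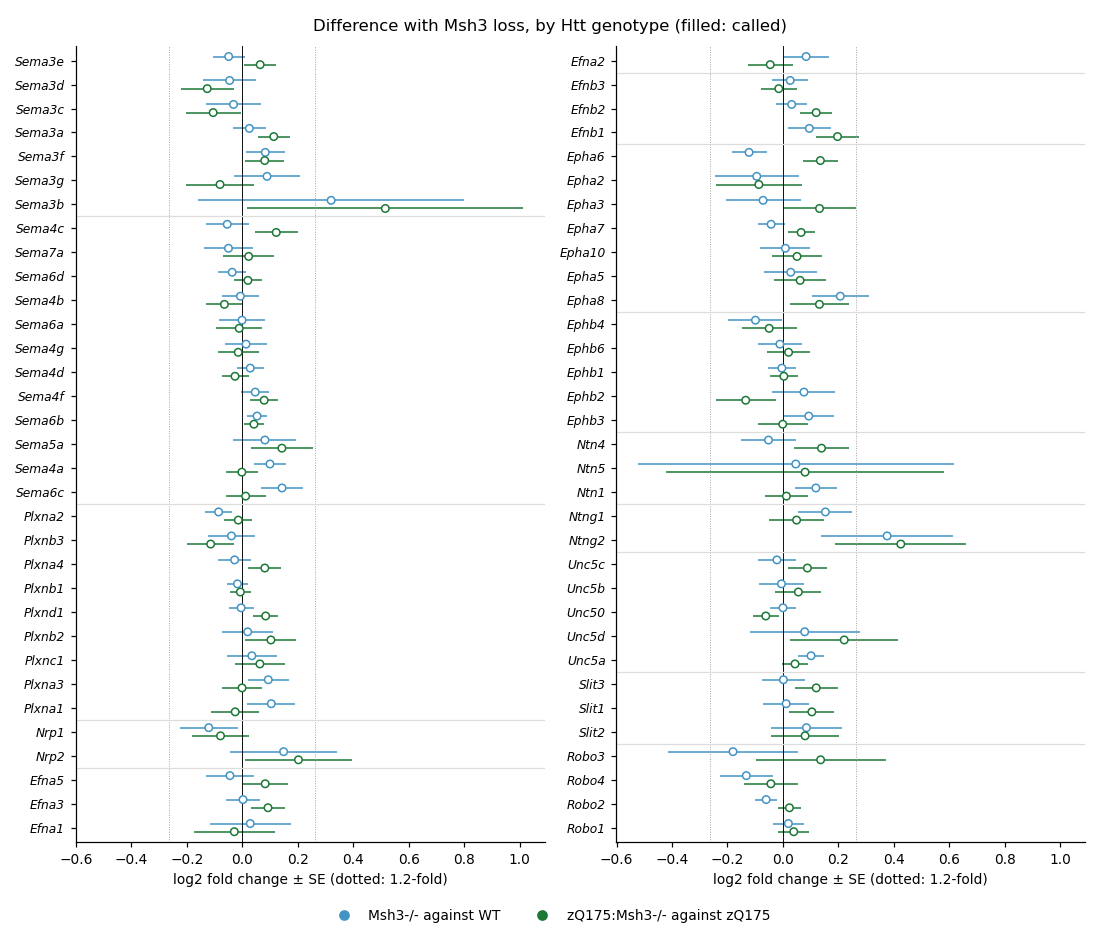
Log2 fold change ± SE of the 66 tested members for Msh3-/- against WT (blue) and zQ175:Msh3-/- against zQ175 (green), ordered by family and, within each, by the first comparison. No point is filled, since none was called.

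Efnb1, an X-linked ephrin-B, had 9.93, 12.4 and 13.3 CPM in zQ175 and 12.1, 13.6 and 15.1 in zQ175:Msh3-/- mice, a log2 difference of 0.20 ± 0.08 (unadjusted p = 0.0149, adjusted p = 0.999). It did not hold up against the number of genes tested. In mice without the expanded allele, Msh3 loss called none of the 66 members by edgeR or by any other tool run (0.00602% of all genes by edgeR). A single member, Unc5a, had an unadjusted p under 0.05 there (5.09% of all genes did), with a log2 difference of 0.10 ± 0.05. Whether the zQ175 effect itself depended on Msh3 was tested by the interaction, which called no member and 0% of all genes.

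Epha6, an EphA receptor, was the 1 member with an unadjusted interaction p under 0.05 (4.44% of all genes had one). Its lowest, median and highest CPM were 18.2, 18.8 and 23.0 in WT and 15.7, 18.7 and 22.0 in zQ175 mice. They were 15.6, 18.1 and 19.8 in Msh3-/- and 18.2, 20.9 and 22.8 in zQ175:Msh3-/- mice. The zQ175 change was -0.07 ± 0.06 with Msh3 and 0.19 ± 0.06 without it (adjusted p = 0.0275, under 1.2-fold). The interaction of 0.26 ± 0.09 had an unadjusted p of 0.00648 and an adjusted p of 0.999. Epha6 was named after its values were seen, and its change did not pass the correction.

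Other genes of the guidance pathways were counted as 2 lists. Of 36 other cues and co-receptors, 1 rose and 1 fell between zQ175 and WT: Islr2, a coreceptor known from neurite growth (0.80 ± 0.08, adjusted p = 2.34e-09), and Flrt3, an adhesion ligand of Unc5 and Robo receptors (-0.36 ± 0.06, adjusted p = 1.06e-05). Without Msh3, 3 of the 36 rose, which were Islr2 (0.74), Chl1 (0.29) and Draxin (0.80), and Flrt3 fell (-0.28). The count of 4 called genes was 2 with limma on log2(TPM + 1). Draxin, a netrin-binding repellent, had a wide error (SE 0.30). Of 55 cytoplasmic effectors, 5 rose and 8 fell between zQ175 and WT, and 5 rose and 6 fell without Msh3. Over all genes, 4.70% rose and 6.89% fell in the first comparison, and 4.68% and 5.96% in the second. Chn1, the Rac GTPase-activating protein that acts below EphA receptors, fell most clearly (-0.57 ± 0.04 and -0.50 ± 0.04), followed by Ngef, the ephexin that Eph receptors use to reach RhoA (-0.52 ± 0.04 and -0.49 ± 0.04). Gsk3b, a kinase below several guidance receptors (-0.40 and -0.29), also fell in both. Dpysl4 (0.40 and 0.30) and Dpysl3 (0.39 and 0.46), collapsin response mediator proteins that act below semaphorins, rose in both. The median log2 change between zQ175 and WT was 0.09 for the 36 cues and 0.01 for the 55 effectors, and neither list had a member called with loss of Msh3 in either Htt genotype.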

How the data were processed

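Striatal RNA of 32 mice (8 per genotype, 6 months) was polyA-selected and sequenced as paired reads. The authors deposited raw counts per gene and, for the same mice, a table named FPKM whose columns each sum to 1000000, so it was treated as TPM. The submitters' processing notes name GRCm38.p6, while the aligner, counter and strand setting are not given in the sources used here. Of 54532 gene identifiers, 54495 matched GENCODE M21. Counts were fitted by edgeR 4.0.16 in R 4.3.3 (TMM, low-count filter, robust quasi-likelihood, 1 model of 4 genotypes, 16610 genes, Benjamini-Hochberg over all of them). A call needed an adjusted p under 0.05 and a 1.2-fold change. The SE of an edgeR log2 change was derived as its absolute value over the square root of F, the test statistic. Alternatives used DESeq2 1.42.0 and limma 3.58.1 on log2(TPM + 0.1) or log2(TPM + 1) for genes at 0.1 TPM or more on average, scales that understate changes of low genes. Columns were matched to mice by their own numbers, and no mouse was left out. All members called in either zQ175 comparison were named, with the 2 highest by TPM in each family and those under the filter. Members were chosen by symbol and the lists by gene name, both with earlier results of these data known. Genotype groups came from the labels, and methods were tested on simulated data. No 2 libraries of the same genotype agreed within sampling noise, and pairs across genotypes were not compared. Promoters are from RefSeq. Items set aside by the rule are not reported here.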

Additional observations from a re-analysis of the deposited data

Results flagged for a closer look

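In groups of 8 mice, a single mouse was tested for standing apart by its gap to the nearest other mouse as a share of the group's range (Dixon's test at the 95% level). Of 56 sets of mice, over the 14 members called in either zQ175 comparison, 4 stood apart, where chance gives 2.8. Sema6c in zQ175:Msh3-/- mice had a lowest mouse, male 3, at 12.6 CPM with the others between 14.2 and 15.7 (share 0.562). The same mouse was lowest for Slit1, at 22.0 CPM with the others between 28.7 and 34.8 (share 0.582), and it had the lowest summed cortical markers of its group, 131 CPM. Robo4 in zQ175:Msh3-/- mice had a lowest mouse, female 2, at 4.06 CPM with the others between 4.72 and 5.36 (share 0.540). Epha8 in zQ175 mice had a highest mouse, male 4, at 23.9 CPM with the others between 14.4 and 18.0 (share 0.564). That mouse had the lowest summed cortical markers of all mice, 36.3 CPM.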

How the results depend on the processing

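Counts of members called moved past 1.5 times their value only in these cases. With no minimum fold, 19 members passed the adjusted p between zQ175 and WT (12 with it), 18 between zQ175:Msh3-/- and Msh3-/- (10) and 23 between zQ175:Msh3-/- and WT (13). Without the 10 mice of low or high cortical marker level, which leaves fewer samples, 8 were called between zQ175:Msh3-/- and WT. With the replicate block the counts were 11, 11 and 13. Deviations of mice with the same number had correlations of -0.195 to 0.269 between WT and zQ175 (median 0.0228, 2 of 8 over 0.1). Mice with different numbers were not compared, so this check cannot tell whether the numbers or litters pair mice. Over 22 called results of named members in the 2 zQ175 comparisons, each under 12 alternatives, 237 of 264 values kept the call, 27 fell below it and 0 changed direction, and 12 results kept it in all. Efna3 lost its call in 6 alternatives, including only the groups of the comparison and every TPM setting. Epha8 lost its call in 5, Slit3 in 4, Robo4 in 3, Plxnd1 without Msh3 in 3 (TPM), Plxnb3 without Msh3 in 2, Slit2 once in each comparison, and Ephb2 and Efna5 without Msh3 once each. The causes were not tested. Without the 8 mice of high choroid plexus markers, 12 and 10 members were called, and with cortical and choroid plexus marker levels in the model the counts were the same, 12 and 10. Without the 10 mice of low or high cortical marker level the counts for these 2 comparisons were lower, 10 and 7.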
